A study of Homo sapiens with 3 samples.

Results

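Levels of 8 long noncoding RNAs, MALAT1, NEAT1, KCNQ1OT1, PVT1, MIR205HG, TUG1, NORAD and H19, were examined in RWPE1 cells, an immortalized line derived from the epithelium of a normal human prostate. The members were found by matching the Ensembl identifiers of the deposited gene count table to these genes, and each of the 8 matched 1 of its 58037 rows. The table holds 3 bulk libraries, 1 per condition, from OLFM4-wild, OLFM4-knockout and OLFM4-active cells. OLFM4 is a secreted glycoprotein marking certain epithelial progenitor cells, and the comparisons ask how RNA levels differ between cells that the labels set apart by the state of this gene. The study's methods describe knockout reporter cells made with paired nickase CRISPR plasmids directed at OLFM4, and wild reporter cells made with CRISPR activation plasmids for the same gene. They describe no separate line for the library labelled OLFM4-active, so how those cells were made is not given in the sources used here. Stable lines were established in puromycin. By the methods, RNA for bulk sequencing came from cells sorted for green fluorescence, and the study's results name this sorting for the knockout cells. Whether the wild library came from the wild reporter cells or from cells without a plasmid is not stated.

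Depth differed between libraries, with totals of 16309906 counts for OLFM4-wild, 58837147 for OLFM4-knockout and 23224216 for OLFM4-active. OLFM4 itself had 214, 131 and 16 counts in that order, or 11.8, 2.55 and 0.670 CPM (counts scaled to a common library size with TMM factors). The label of the active library is contradicted by its OLFM4 level, the lowest of the 3. It is therefore called the library labelled OLFM4-active below, and no direction drawn from it stands for activation. The knockout library held more OLFM4 than this one, so OLFM4 counts alone cannot tell which of the pair is the knockout, and the knockout label is used as given. Whether the libraries were exchanged was not tested. With 1 library per condition no difference could be tested, so every comparison is between libraries. Each value in parentheses after a difference or ratio is its exact 95% Clopper-Pearson interval. It covers counting error only and leaves out any spread between cultures. The 9 epithelial markers, among them KRT5, KRT14 and TP63, had counts in all 3 libraries and summed to 23574, 50436 and 27183 CPM in the order wild, knockout, active-labelled. The 9 stromal markers summed to 58.1, 43.7 and 35.8 CPM, mostly COL1A1 and MYH11, with COL3A1, LUM and DES at 0 in every library. The 8 leukocyte markers summed to between 20.2 and 31.5 CPM, nearly all from CD68, with LYZ, CD3E and HBB at 0 throughout, and the 6 endothelial markers to between 0.711 and 2.20 CPM, with CDH5 at 0. In bulk RNA, fewer cells of a type and less RNA per cell cannot be told apart.

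Long noncoding RNAs are transcribed and often spliced like messenger RNAs, but they act as RNA. Several stay in the nucleus: MALAT1 gathers in nuclear speckles, which store splicing factors, and NEAT1 is the scaffold on which paraspeckles assemble. KCNQ1OT1 and H19 are imprinted, which means that 1 parental copy is silent, and both lie in the imprinted cluster on the short arm of chromosome 11. MIR205HG, the host gene of miR-205, is characteristic of basal epithelium, the compartment that RWPE1 cells resemble in their keratins.

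In the OLFM4-knockout library MALAT1 and NEAT1 were lower than in the OLFM4-wild library, to 0.335 and 0.440 of its level, and H19 was 4.25 times as high. TUG1 and KCNQ1OT1 were lower by smaller amounts, MIR205HG and NORAD lay near the wild level, and the difference for PVT1 was within counting error under TMM scaling. Of the 8 members, 2 had a log2 fold change below -1 in knockout against wild, where 7.56% of the 16600 expressed genes did, a gene counting as expressed when its 3 CPM values averaged 1 or more. H19 alone was above 1, beside 5.77% of expressed genes. In the library labelled OLFM4-active against wild, 0 of 8 lay above 1 (3.78% of expressed genes) and 1, again H19, lay below -1 (6.73%). In knockout against the library labelled OLFM4-active, H19 lay above 1 (2.95%) and MALAT1 below -1 (3.39%). Each pair of these comparisons shares a library, so they are not independent of each other. With 8 genes, each is 12.5% of the set, and these counts are given as a description. All 8 members passed the filter at 1 CPM, and 7 of them, all but H19, averaged 10 CPM or more.

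**Figure D1:**
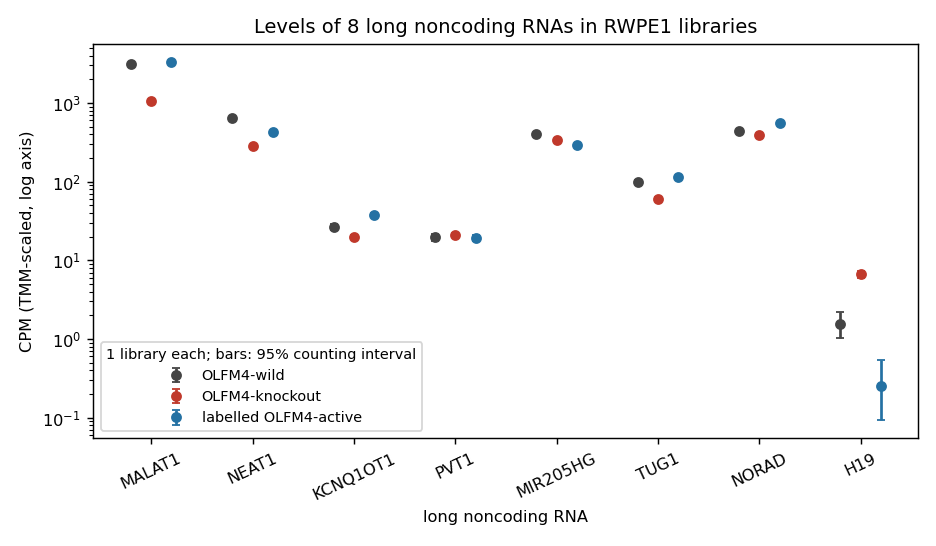
CPM of each of the 8 long noncoding RNAs in the 3 libraries, on a log axis, with points for the libraries and bars for the exact 95% counting intervals. MALAT1 runs from 1051 to 3304 CPM and H19 from 0.251 to 6.66 CPM, and the points for PVT1 lie between 19.4 and 20.8 CPM.

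The median log2 fold change of the 8 members in knockout against wild was -0.35, beside 0.10 for all expressed genes and 0.05 for the 2274 expressed genes that GENCODE 44 types as lncRNA. The corresponding medians for the library labelled OLFM4-active were 0.03, 0.05 and -0.02. Scaling mattered for small differences: with library totals in place of TMM every log2 fold change in knockout against wild is lower by 0.35, the median of all expressed genes becomes -0.26 and that of the members -0.70. Under TMM 6 of the 8 members lay below 0 in this comparison, beside 43.3% of expressed genes. With library totals 7 members did, beside 11201 of the 16600 expressed genes. Together the members took 0.532% of the counts of the wild library, 0.190% of the knockout library and 0.488% of the library labelled OLFM4-active. The remaining genes typed lncRNA summed to 41417, 49123 and 39243 CPM in the same order.

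**Figure D2:**
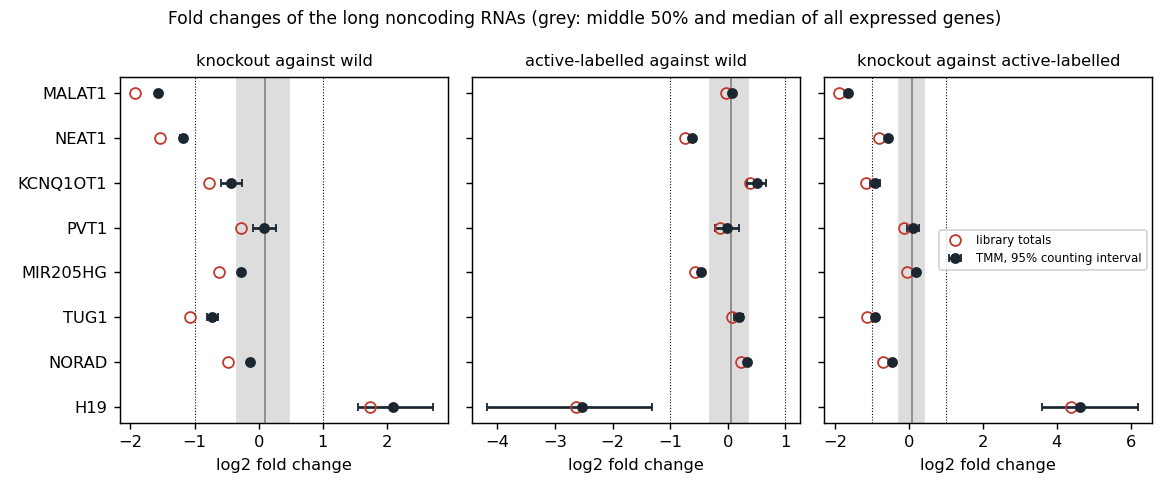
Log2 fold change of each member in the 3 comparisons under TMM (filled points, with 95% counting intervals) and with library totals (open points). The grey band is the middle 50% of all expressed genes and dotted lines mark -1 and 1. MALAT1, NEAT1, KCNQ1OT1 and TUG1 lie to the left of the band under TMM in knockout against wild and H19 to its right, and H19 lies on the other side in the active-labelled library.

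MALAT1 is an abundant nuclear RNA transcribed from chr11:65497640-65508073 on the plus strand (GRCh38). It had 56951 counts in wild, 53942 in knockout and 78948 in the active-labelled library. The knockout library thus held fewer MALAT1 reads than the wild library although it was the most deeply sequenced. In CPM this was 3134, 1051 and 3304, which placed MALAT1 at rank 3, 5 and 2 among the 2274 expressed lncRNA genes. The knockout library stood low and the other libraries lay close together. The log2 fold change in knockout against wild was -1.58 (-1.59 to -1.56), or -1.93 with library totals, and only 3.03% of expressed lncRNA genes had a lower one. Against the library labelled OLFM4-active the knockout library differed by -1.65 (-1.67 to -1.64). Between the library labelled OLFM4-active and wild the difference was 0.08 (0.06 to 0.09), which turns to -0.039 with library totals, so no direction is read from it.

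NEAT1 lies upstream of MALAT1 on the same strand, at chr11:65422774-65445540. Its short form ends early and its long form, which paraspeckles need, runs to the end of the locus, and gene counts do not separate them. The counts were 11858 in the wild, 14740 in the knockout and 10121 in the active-labelled library, or 653, 287 and 424 CPM. Here the wild library stood highest and both other libraries were lower, at -1.18 (-1.22 to -1.15) in knockout against wild and -0.62 (-0.66 to -0.59) in the active-labelled library against wild. Knockout was also below the active-labelled library, by -0.56 (-0.60 to -0.52). MALAT1 and NEAT1 therefore did not keep a fixed proportion: the ratio of MALAT1 to NEAT1 counts was 4.80 (4.71 to 4.90) in wild, 3.66 (3.59 to 3.73) in knockout and 7.80 (7.64 to 7.96) in the library labelled OLFM4-active.

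The mature 3′ ends of MALAT1 and of long NEAT1 are not made by adding a poly(A) tail. Ribonuclease P cuts the transcript just before a tRNA-like structure, and a U-rich pair of stretches then folds with a genomically encoded A-rich tract into a triple helix. These ends are shown because MALAT1 and long NEAT1 share them and the rows of both genes were low in the knockout library. The NEAT1 row does not separate short from long NEAT1, so which form was low is not known. Capitals mark the U-rich stretches, read in DNA letters as TTTCTTTT and TTTGCTTTT, and the A-rich tract AAAGCAAAA, in 90 bases of each gene from the GRCh38 genome. The MALAT1 bases, chr11:65506027-65506116 on the plus strand, stop directly before a small RNA entry at chr11:65506117-65506173. The NEAT1 bases, chr11:65445451-65445540 on the plus strand, stop at the annotated end of the gene.
MALAT1: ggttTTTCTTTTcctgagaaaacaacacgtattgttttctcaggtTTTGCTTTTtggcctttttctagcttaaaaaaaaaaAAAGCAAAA
NEAT1: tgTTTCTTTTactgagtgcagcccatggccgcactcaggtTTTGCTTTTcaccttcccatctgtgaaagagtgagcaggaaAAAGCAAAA

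Several short entries are annotated inside MALAT1 and NEAT1, and the miscellaneous RNA entries among them were lower in knockout than in wild. A 95-base miscellaneous RNA entry inside MALAT1, ENSG00000278217, had 3264, 3232 and 6432 counts and a log2 fold change of -1.51 (-1.58 to -1.44). Its difference in the active-labelled library against wild was 0.58 (0.52 to 0.64), unlike that of the MALAT1 row. The 3 such entries inside NEAT1 all lie near its 5′ end, in the stretch common to both forms, and had differences of -1.58, -1.40 and -1.96 in knockout against wild. The small RNA entry after the MALAT1 triple helix had 6, 20 and 3 counts, too few for a direction. Whether a read in such an entry was also counted for its host is not given in the sources used here, so these values are uncertain and are no independent measurement. MALAT1 also carries an opposite-strand lncRNA entry, ENSG00000270117, which had 23, 20 and 4 counts.

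**Figure D3:**
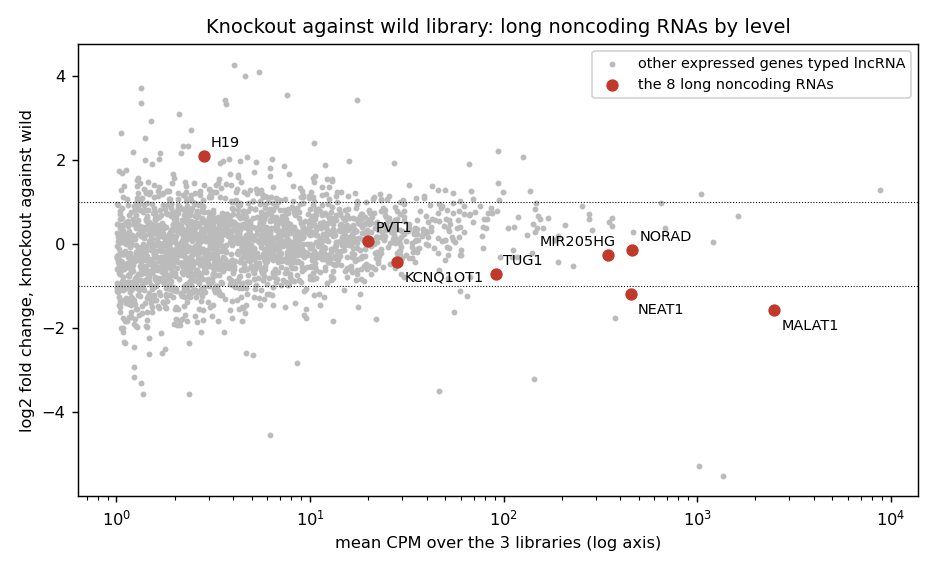
Log2 fold change in knockout against wild (vertical) by mean CPM on a log axis for the 2274 expressed lncRNA genes in grey and the 8 members in red, with dotted lines at -1 and 1. TUG1 is drawn as a member although GENCODE 44 types its gene as protein coding. MALAT1 and NEAT1 lie below -1 at high level, H19 above 1 at a mean of 2.82 CPM, and the other members between the lines.

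The proteins that work with these RNAs did not share their difference. Of 19 paraspeckle proteins, 0 lay above 1 and 2 below -1 in knockout against wild, beside 5.77% and 7.56% of all expressed genes. Their median was 0.04, beside 0.10 for all expressed genes. The proteins that bind NEAT1 directly to form the core were higher in knockout, with NONO at 336, 486 and 380 CPM, a difference of 0.53 (0.49 to 0.57). PSPC1 differed by 0.37 (0.27 to 0.48), or 0.02 with library totals, and SFPQ by 0.30 (0.25 to 0.34), which becomes -0.06 with library totals. The 2 proteins below -1 were TAF15 at -1.29 (-1.40 to -1.18) and HNRNPH3 at -1.07 (-1.17 to -0.96), both RNA-binding proteins. Of 19 nuclear speckle proteins, 3 lay above 1 and 1 below -1 under TMM, beside 5.77% and 7.56% of all expressed genes. The 3 were splicing factors, SRSF2 at 1.35 (1.28 to 1.41), SRSF7 at 1.34 (1.25 to 1.43) and SRSF1 at 1.01 (0.96 to 1.07). With library totals they were at 0.996, 0.988 and 0.66, so none of the 3 lay above 1. The speckle scaffold protein SRRM2 was at -0.82 (-0.86 to -0.79), or -1.18 with library totals, and PNN at -0.60 (-0.72 to -0.47). The 1 speckle gene below -1 under TMM was U2AF1, with 66, 49 and 41 counts. This gene has a near-identical copy in the genome, so its level is uncertain. U2AF1 and SRSF1, and further on RPP25, ZEB1, CASC19, TNNI2, MRPL23, SNRPN, PLAGL1, MIR210HG, TM7SF2, EFEMP2 and FAUP4, were named after their values were seen, to complete small counts.

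Under TMM scaling, genes of the machinery that cuts and binds the 3′ ends were at or above the wild level in the knockout library. All 11 listed, subunits of ribonuclease P with ELAC2 and METTL16, lay above 0 in knockout against wild, where 9405 of the 16600 expressed genes did. Of the 11, 3 lay above 1, beside 5.77% of expressed genes. The median of the 11 was 0.70, or 0.35 with library totals, under which METTL16 and RPP14 fall on the other side of 0. RPP40 was at 1.71 (1.43 to 2.02) and POP1 at 1.55 (1.37 to 1.74), RPP25 at 1.45 and METTL16, which binds the MALAT1 triple helix, at 0.16 (0.04 to 0.29), or -0.19 with library totals. The 11 genes also lay above 0 in the library labelled OLFM4-active against wild, where 8943 of the 16600 expressed genes did. Their median was 0.43 in that library, where MALAT1 was close to wild. Of 16 genes of nuclear RNA decay, 11 lay above 0 in knockout against wild, beside 9405 of the 16600 expressed genes. Of the 16, 1 lay above 1, beside 5.77%. Their median was 0.42, or 0.06 with library totals. The exosome subunit EXOSC4 was at 1.57 and the exonuclease DIS3 at 0.70, or 1.22 and 0.35 with library totals. ZFC3H1, which links polyadenylated nuclear RNA to the exosome, was at -0.84, or -1.19 with library totals.

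Genes around MALAT1 and NEAT1 did not show the same difference. Among the 51 expressed genes within 500 kb of MALAT1, leaving out entries that lie inside a member, none was lower than MALAT1 in knockout against wild, and their median was 0.22. Of these, 5 lay above 1, beside 5.77% of all expressed genes. Another 4, NEAT1, TM7SF2, EFEMP2 and the pseudogene FAUP4, lay below -1, beside 7.56%, with NEAT1 the lowest. On the list of 10 expressed neighbours, FRMD8 was at 1.06 (0.96 to 1.17) and DPF2 at -0.17.

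**Figure D4:**
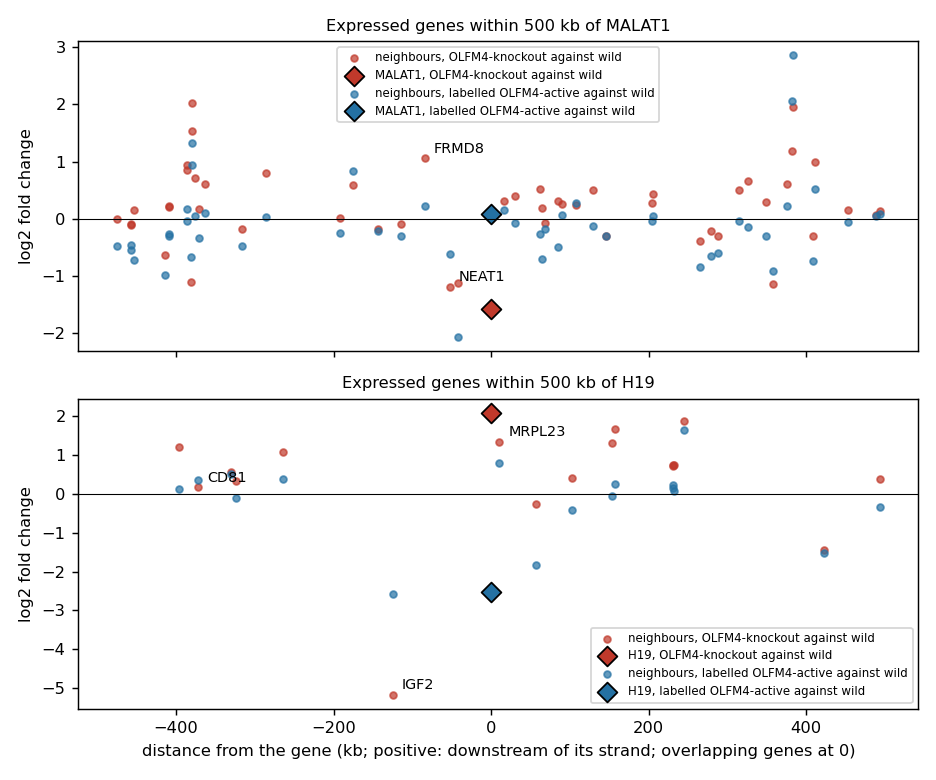
Log2 fold changes of expressed genes within 500 kb of MALAT1 (upper panel) and H19 (lower panel) against distance in kb along the strand of the gene, for knockout against wild in red and the active-labelled library against wild in blue, with diamonds for the member. In knockout against wild MALAT1 is the lowest point of its panel and H19 the highest of its own, and IGF2 stands at -5.18.

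Length moved with the difference. Expressed lncRNA genes with a longest transcript under 1 kb, members left out, had a median of 0.21 in knockout against wild (988 genes), and those of at least 5 kb a median of -0.31 (156 genes). The 38 of at least 5 kb with 1 exon, the form that MALAT1, NEAT1, KCNQ1OT1 and NORAD share, had a median of -0.59. Of the 38, 14 lay below -1, beside 7.56% of all expressed genes and 10.3% of expressed lncRNA genes. Among protein-coding genes the medians were -0.10 at 5 kb or more and 0.20 under it. MALAT1 and NEAT1 lay below the median of their own class and KCNQ1OT1 and NORAD, at -0.43 and -0.13, above it. In the active-labelled library against wild the 1-exon class had a median of -0.29. The part of RNA length, of library depth and of the amount of unspliced RNA in these differences was not tested.

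**Figure D5:**
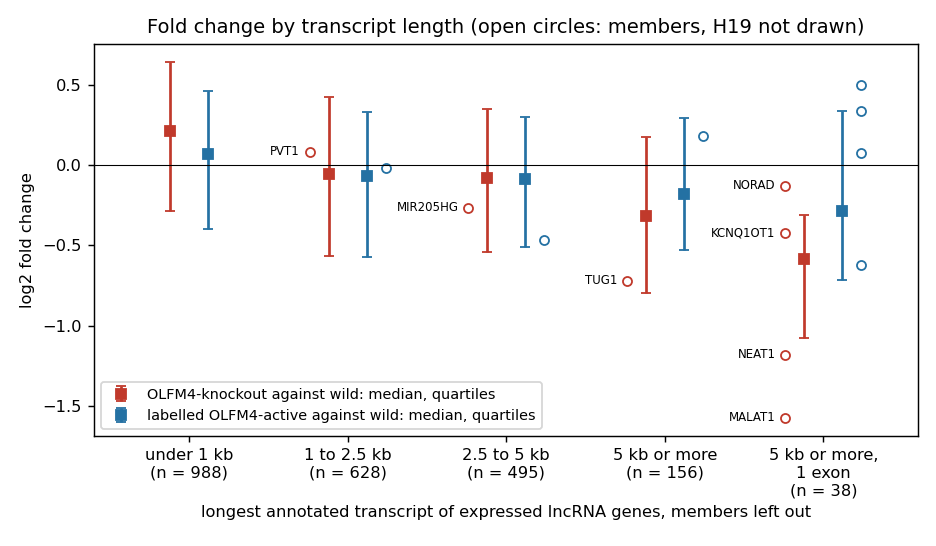
Median log2 fold change with quartiles of expressed lncRNA genes by length of their longest transcript, members left out, for knockout against wild in red and the active-labelled library against wild in blue, with 7 members as open circles (H19 not drawn). The 1-exon class is a subset of the class of 5 kb or more, and red medians run from 0.21 under 1 kb to -0.31 at 5 kb or more and -0.59 in the 1-exon class.

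TUG1, on the plus strand at chr22:30969245-30979395, is an RNA reported to associate with the Polycomb repressive complex PRC2. GENCODE 44 types its gene as protein coding because of a short reading frame. Its counts were 1821, 3120 and 2723 in the wild, knockout and active-labelled libraries, or 100.2, 60.8 and 114 CPM. The knockout library stood low and the active-labelled library slightly above wild, with log2 fold changes of -0.72 (-0.81 to -0.64) in knockout against wild and 0.19 (0.10 to 0.27) in the active-labelled library against wild. With library totals the first becomes -1.07, which takes TUG1 past -1. The 4 short entries inside TUG1 on its strand had differences of -0.68 to -1.16 in knockout against wild, with the same limit as those in MALAT1. Of the 10 expressed genes of PRC2 and the TUG1 neighbourhood none lay past 1 in either direction in knockout against wild, beside 5.77% of expressed genes above 1 and 7.56% below -1. EED, a core subunit, was at 0.51 and EZH1, a catalytic subunit, at -0.62.

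NORAD is an unspliced cytoplasmic RNA at chr20:36045618-36051018 on the minus strand that binds Pumilio proteins such as PUM2, which repress messenger RNAs through the Pumilio element. It had 7906, 20382 and 13149 counts, or 435, 397 and 550.3 CPM in wild, knockout and active-labelled. The active-labelled library stood highest. NORAD differed by -0.13 (-0.17 to -0.09) in knockout against wild, or -0.48 with library totals, and 0.34 (0.30 to 0.38) in the active-labelled library against wild. PUM2 was at -0.85 (-0.93 to -0.77) in knockout against wild, with 125, 69.4 and 131 CPM. PUM2 was thus low where NORAD was near wild. None of the 8 genes on the NORAD list lay past 1 in either direction in knockout against wild, beside 5.77% of expressed genes above 1 and 7.56% below -1. EPB41L1 was at 0.78 and DLGAP4 at -0.75.

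The Pumilio element is shown because it is what distinguishes NORAD from the other members in sequence. The letters TGTANATA, read on the sense strand, occurred 15 times in the 5401-base transcript, or 2.78 per kb, from position 819 to position 4657, and 10 of the 15 were TGTATATA. The following windows of 24 bases from GRCh38 hold the element in capitals, the first at chr20:36050185-36050208 and the second at chr20:36049806-36049829, both on the minus strand.
NORAD element 1: aaggcctgTGTATATAatatgaaa
NORAD element 2: cactactgTGTATATAgttgacaa
The longest transcripts of NEAT1, KCNQ1OT1 and TUG1 held 6, 9 and 2 such matches, at 0.264, 0.0982 and 0.268 per kb, and those of MALAT1, PVT1, MIR205HG and H19 held 0. Of 849 other expressed lncRNA genes with a transcript of at least 2 kb, 28.0% held a match, and 99.9% had fewer per kb than NORAD.
Promoters from RefSeq, 300 bases around the start of MALAT1 (2 entries), MIR205HG, TUG1, NORAD and H19, were searched on both strands for the MYC-type E-box CACGTG and the AP-1 motif TGANTCA. The E-box occurred in the entries of TUG1 and NORAD, beside 7.26% of 35116 promoters, and the AP-1 motif in none of the 6 entries, beside 7.71%.

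MIR205HG, at chr1:209428817-209432848 on the plus strand, gives rise to miR-205, a microRNA of basal epithelial cells, and its spliced RNA has a function of its own in the basal layer. The libraries measured the host gene, not the mature microRNA. The miRNAs of MIR205HG and H19 are shown because their hosts lay on opposite sides of 0 in knockout against wild, with the seed (bases 2 to 8) in capitals, from RefSeq on GRCh38. The miR-205-5p sequence lies in an intron of the host at chr1:209432166-209432187, plus strand. The miR-675 arms lie in an exon of H19 at chr11:1996800-1996822 and chr11:1996768-1996787, minus strand, and the 3 seeds differ from each other.
miR-205-5p: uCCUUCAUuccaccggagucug
miR-675-5p: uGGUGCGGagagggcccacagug
miR-675-3p: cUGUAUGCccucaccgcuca

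MIR205HG had 7406 counts in wild, 17365 in knockout and 7061 in the active-labelled library, or 408, 338 and 296 CPM. The wild library was the highest, and the differences were small. On the log2 scale MIR205HG was at -0.27 (-0.31 to -0.23) in knockout against wild, or -0.62 with library totals, and -0.46 (-0.51 to -0.42) in the active-labelled library against wild. Between knockout and active-labelled it was 0.19 (0.15 to 0.24), which turns to -0.043 with library totals. TP63, the transcription factor that defines basal epithelium, was at 0.19 (0.15 to 0.23) in knockout against wild, or -0.16 with library totals, so the ratio of MIR205HG to TP63 counts was 0.986 (0.954 to 1.02) in wild, 0.716 (0.702 to 0.730) in knockout and 0.657 (0.637 to 0.677) in the active-labelled library. Its neighbour LAMB3, a chain of the basement membrane protein laminin-332, was at 0.91 (0.85 to 0.96). The keratins of the basal layer were higher in knockout than in wild while MIR205HG was not, with KRT5 at 1.15 and KRT14 at 1.27. Of 11 expressed miR-205 targets and basal factors, 0 lay above 1 and 1 below -1, with a median of -0.10. The shares over all expressed genes were 5.77% and 7.56%. The 1 was ZEB1, a repressor of epithelial genes and target of the miRNA, with 44, 56 and 25 counts and a difference of -1.15. The reported targets VEGFA and ERBB3 were at -0.80 and -0.58. CDH1, which the targets of miR-205 repress, was at 0.30.

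PVT1 begins beside MYC on chromosome 8, at chr8:127794526-128187101 on the plus strand, and the pair are often amplified together in cancer. It had 357, 1070 and 464 counts, or 19.6, 20.8 and 19.4 CPM, and under TMM scaling no difference between 2 libraries was detectable at this depth. PVT1 differed by 0.08 (-0.09 to 0.26) in knockout against wild, a value that is -0.27 with library totals, and by -0.02 (-0.22 to 0.19) in the active-labelled library against wild. MYC was higher in both: it had 274, 510.3 and 486 CPM, with differences of 0.90 (0.85 to 0.94) and 0.83 (0.78 to 0.87). The ratio of PVT1 to MYC counts was therefore 0.0717 (0.0642 to 0.0798) in wild against 0.0408 (0.0384 to 0.0434) in knockout and 0.0400 (0.0363 to 0.0438) in the active-labelled library. Of the 5 expressed genes on the list of this region, 0 lay below -1 and 1, the lncRNA CASC19 with 11, 75 and 75 counts, above 1 in knockout against wild. Among all expressed genes 7.56% lay below -1 and 5.77% above 1.

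KCNQ1OT1 runs antisense through the KCNQ1 gene on the minus strand at chr11:2597308-2700003 and, when transcribed from the paternal copy, silences neighbouring genes in cis. It had 486, 1023 and 904 counts, or 26.7, 19.9 and 37.8 CPM in wild, knockout and active-labelled. The order of the libraries was active-labelled, wild, knockout, with intervals that did not overlap. The log2 fold change was -0.43 (-0.58 to -0.27) in knockout against wild, or -0.78 with library totals, and 0.50 (0.34 to 0.66) in the active-labelled library against wild. KCNQ1 on the opposite strand had 9, 53 and 3 counts, so the ratio of KCNQ1OT1 to KCNQ1 counts was 54.0 (28.2 to 119) in wild, 19.3 (14.6 to 25.9) in knockout and 301 (103 to 1464) in the active-labelled library. CDKN1C, a cell cycle inhibitor that KCNQ1OT1 silences on the paternal copy, had 15.1, 70.3 and 13.5 CPM, with a difference of 2.22 (2.04 to 2.40) in knockout against wild and -0.16 (-0.40 to 0.08) in the active-labelled library. Of its 15 expressed listed genes, the imprinted region had 5 above 1 and 1 below -1 in knockout against wild. The shares over all expressed genes were 5.77% and 7.56%. The median of the listed genes was 0.41, or 0.06 with library totals. The 5 were CDKN1C, TSSC4 at 1.20 (1.02 to 1.40), ASCL2 at 1.09 (0.88 to 1.30), MRPL23 at 1.35 and TNNI2 at 1.32 (0.55 to 2.29). TNNI2 had only 14, 102 and 18 counts and was above 1 CPM in the knockout library alone, at 1.99 CPM. With library totals CDKN1C alone stayed above 1, at 1.87. TSSC4, ASCL2, MRPL23 and TNNI2 were then at 0.85, 0.73, 0.998 and 0.97. The gene below -1 was IGF2, above 1 CPM in the wild library alone, at 3.85 CPM. TNNI2 and IGF2 thus passed the filter only through the library where each was high, so counting them supports no difference.

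H19, at chr11:1995166-2004552 on the minus strand, is expressed from the maternal copy and shares enhancers with IGF2, a growth factor expressed from the paternal copy. It had 28 counts in wild, 342 in knockout and 6 in the library labelled OLFM4-active, or 1.54, 6.66 and 0.251 CPM. The 3 libraries were separate, in the order knockout, wild, active-labelled, at low counts. On the log2 scale the difference was 2.09 (1.55 to 2.72) in knockout against wild, -2.53 (-4.18 to -1.32) in the active-labelled library against wild and 4.62 (3.59 to 6.19) in knockout against the active-labelled library. IGF2 went the other way in knockout, with 70, 5 and 15 counts and a difference of -5.18 (-6.97 to -4.01). IGF2 overlaps the readthrough gene INS-IGF2 on its own strand, so its count is uncertain. In the active-labelled library IGF2 was low too, at -2.58 (-3.53 to -1.80). The ratio of H19 to IGF2 counts was 0.400 (0.248 to 0.628) in wild, 68.4 (29.0 to 212) in knockout and 0.400 (0.127 to 1.09) in the active-labelled library. A 71-base miscellaneous RNA entry on the opposite strand of H19, ENSG00000275266, had 2, 235 and 0 counts, a difference whose counting interval was 3.51 to 8.43 in knockout against wild. How reads of this entry relate to those of H19 was not tested. The 17 expressed genes within 500 kb of H19, left without entries inside a member, had a median of 0.71 in knockout against wild, and all were lower than H19.

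The imprinted genes outside this region did not share a direction with H19. Of 11 expressed, 3 were above 0 in knockout against wild, where 9405 of the 16600 expressed genes were, and the median of the 11 was -0.45. Another 3 lay below -1, beside 7.56% of expressed genes. MEST, a paternally expressed gene, was at 0.39 and IGF2R at 0.20, whereas GRB10 was at -0.85. With library totals MEST was at 0.04, IGF2R at -0.15 and GRB10 at -1.20. The 3 below -1 were PEG10 at -1.10, SNRPN at -1.82 and PLAGL1 at -1.70. Of the 10 expressed genes that maintain imprints, none lay past 1 in either direction, beside 5.77% of expressed genes above 1 and 7.56% below -1. ZFP57 was at 0.93, TRIM28 at 0.70 and ZNF445 at -0.92, or -1.28 with library totals. In the H19 and let-7 list, HMGA2, a let-7 target, was at 0.59 (0.41 to 0.78) in knockout against wild, and HMGA1 at 0.54. With library totals these were 0.24 and 0.19. HMGA2 was highest in the library labelled OLFM4-active, at 1.33 (1.14 to 1.52) against wild, where H19 was at -2.53. Of the 7 expressed listed genes, 6 lay below 0 in knockout against that library, beside 43.3% of all expressed genes. Whether these genes follow H19 was not tested.

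Levels were set side by side between genes only as CPM per kb of merged exons. On that scale MALAT1 was the highest member in each library, at 300.4, 101 and 317 in wild, knockout and active-labelled. MIR205HG followed at 115, 95.7 and 83.6 and NORAD at 80.6, 73.5 and 102, so the order of these last 2 differs in the active-labelled library. NEAT1 stood at 28.7, 12.6 and 18.6 and TUG1 at 9.87, 5.99 and 11.2. PVT1, H19 and KCNQ1OT1 were below 2 in all libraries, and PVT1 and KCNQ1OT1 have merged exons of 25431 and 92625 bases in GENCODE 44 that may not match the annotation the authors counted on.

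Among 10596 genes averaging 10 CPM or more, the ones with the most similar pattern over the 3 libraries were found by the Euclidean distance of log2 CPM centred on each gene's mean, over 3 points. For MALAT1 the nearest was ATN1, at a distance of 0.10, and 9 genes lay within 0.25. For NEAT1 they were SOX12, FBXL20 and SERPINE2, and 89 genes lay within 0.25. For PVT1, which hardly varied, TADA3, BSCL2 and DYNLT3 led 2862 such genes. KCNQ1OT1 had TMEM131, CCNI and PGRMC2, MIR205HG had H1-10-AS1, GARRE1 and FLRT3, TUG1 had FOXRED2, NIPBL and IKZF5, and NORAD had YWHAE, CFL2 and BTBD7. H19 had no gene within 0.25, and the nearest were KRT75 at 0.55, KRT4 at 1.53 and the pseudogene entry ENSG00000232176 at 1.80.
Other long noncoding RNAs on a separate list lay on both sides of 0: of 21 expressed, 1 lay above 1 and 2 below -1 in knockout against wild, with a median of -0.20. Among all expressed genes the shares were 5.77% and 7.56%. MIR31HG was at 1.37 (1.12 to 1.63) with 7.81, 20.2 and 9.54 CPM. The 2 below -1 were UCA1 at -1.09 (-1.28 to -0.90) and MIR210HG at -1.26, and LINC01133 stood at -0.82 (-0.99 to -0.65).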

How the data were processed

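The series holds 3 bulk RNA libraries of RWPE1 cells, grouped by their labels with 1 library in each group. The labels and methods name total RNA depleted of ribosomal RNA, stranded libraries and read pairs. The authors trimmed reads with cutadapt, aligned them with HISAT2 and counted them per gene with featureCounts on GRCh38. The deposited values are whole-number counts without normalization, and the annotation release is not given in the sources used here. GENCODE 44 held 56948 of the 58037 identifiers and gave positions, lengths and gene types.

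TMM factors of edgeR 4.0.16 (1.11, 0.872 and 1.03 for wild, knockout and active-labelled) scaled the library sizes in R 4.3.3, and log2 CPM took an offset of 0.5 counts, like voom in limma 3.58.1. Python 3.11.15 computed intervals and sums (scipy 1.17.1, pandas 2.3.3, numpy 2.4.6) and drew the plots (matplotlib 3.10.9). No test was fitted because no condition had a replicate. Intervals are exact 95% Clopper-Pearson intervals, read pairs are not independent molecules, and a floor of 3 counts is 0.165, 0.0584 and 0.126 CPM. Expressed genes had a mean of at least 1 CPM. Code was tested on simulated data.

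Members and gene lists were chosen with earlier results of these data known. Of each list, the 2 highest and 2 lowest genes in knockout against wild at 10 CPM or more were open to naming, with direct partners, neighbours and the 3 nearest genes per member. Not all are named, and some results under this rule are not reported here. Entries inside a member were left out of the neighbours after values were seen. Alternatives were library totals, DESeq2 1.42.0 size factors, upper quartile factors, library sizes without the 10 most abundant genes or without the members, offsets of 1 and 5 counts, thinning, and other filters. TALAM1 had no row matched. Sequences came from the GRCh38 genome and RefSeq.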

Additional observations from a re-analysis of the deposited data

How the results depend on the processing

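Of 192 member fold changes recomputed under the alternatives, 147 stayed within the counting interval of their value under TMM and 43 left it. Another 2, whose interval had excluded 0, changed sign, both with library totals: MALAT1 in the library labelled OLFM4-active against wild became -0.039, and MIR205HG in knockout against the library labelled OLFM4-active became -0.043. In knockout against wild MALAT1 ranged from -1.93 to -1.48, NEAT1 from -1.54 to -1.09, H19 from 1.74 to 2.18 and TUG1 from -1.07 to -0.63. PVT1, whose intervals included 0, also took either sign: it ranged from -0.27 to 0.18 in knockout against wild, and changed sign under some alternatives in the other comparisons too. In knockout against the library labelled OLFM4-active 2 members lay past 1 in either direction, and 4 did with library totals as well as with upper quartile factors. The share of expressed genes above 1 in knockout against wild was 10.1% with a filter of 1 count and 2.18% with library totals. The share below -1 was 24.2% with 1 count, 2.93% with a mean of 10 CPM and 14.1% with library totals. For the active-labelled library against wild the share above 1 was 14.8% with 1 count and 2.35% at 10 CPM, and the share below -1 was 22.4% and 2.49%. For knockout against the active-labelled library the share above 1 was 12.3% with 1 count, 1.2% at 10 CPM and 1.29% with library totals, and the share below -1 was 18.1%, 1.94% and 6.97%. Over the gene lists other than the members 18 genes lay above 1 and 11 below -1 in knockout against wild; with library totals these were 7 and 22, and at 10 CPM 5 lay below -1. No paired analysis was possible because each condition has 1 library, and none could be left out. Low counts limit H19, KCNQ1 and IGF2, whose smallest were 6, 3 and 5.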
